A study of Arabidopsis thaliana with 4 samples.

Results

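The 9 Arabidopsis thaliana genes described here are STZ (AT1G27730), ORA47 (AT1G74930), AT4G29780, AT2G27080, AT1G32920, AT1G76600, AT1G19380, AT1G18740 and AT4G27652. They were taken by name through the array's probe table, which gave each of them 1 probe set of its own, so that 9 of the 13350 genes with such a probe set were read. The genes had been picked from these same 4 arrays with their mutant and wild-type values known. Their differences between genotypes and between arrays are therefore given as a description, with no test.

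Plants respond to wounding, touch, cold, salt and microbes with a fast wave of new transcripts, led by calcium signals and by genes for transcription factors. Many of these transcripts are short-lived and fall again soon after the stimulus ends. STZ, also called ZAT10, encodes a C2H2 zinc-finger repressor of transcription that is induced by salt, cold and drought. ORA47 encodes an AP2/ERF transcription factor that activates genes of jasmonate synthesis. The other 7 genes carry only a locus identifier in the gene table used here, and no role is given to them.

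Above-ground tissue of wild-type plants (2 samples) and of the lwd1lwd2 double mutant (2 samples) was profiled on 1 Affymetrix GeneChip array each. LWD1 and LWD2 are WD-repeat proteins of the circadian clock, and the series asked which genes differ in expression when both are lost. All plants were 31 days old and were collected between 5 and 9 h after dawn of a cycle with 12 h light and 12 h dark. A shift in daily timing and a change in level cannot be told apart. The mutant alleles, the background accession and the number of plants per sample are not stated in these sources. The samples are described as biological replicates, with no statement of how the replicates were grown or harvested. In whole tissue, fewer cells of a type and less RNA per cell cannot be told apart.

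The 4 arrays had median signals between 162 and 181 and had been scaled to 1 common trimmed mean. Precision is limited by the number of arrays. The label of green tissue was checked against 14 leaf markers, of which the 2 that could be named, RCA and PRK of carbon fixation, had signals between 13166 and 29534 on every array. Of 9 root markers 2 could be named: PYK10 had signals between 934 and 1810.2, and the root-hair gene EXPA7 between 4.10 and 41.5. As a sign of RNA quality, the actin 3′ control exceeded its 5′ control by 1.26 (log2) on replicate 1 of wild type and 1.18 on replicate 1 of the mutant, and by less on both replicate 2 arrays, 0.91 and 0.99. The same measure for GAPDH was lower on replicate 1, at -0.23 against -0.19 for wild type and -0.05 against 0.07 for the mutant, and both mutant arrays lay above both wild-type arrays. The probe sets of LWD1 and LWD2 were not analysed here, so the labels were not checked against the targeted genes.

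All 9 genes had higher signals on both mutant arrays than on both wild-type arrays, a separation that 28.9% of the 13647 tested probe sets showed in the same direction. Since the genes were chosen on this contrast, nothing is read from that count. All log2 and fold values here are on the scale log2(signal + 16), unless another setting is named. A fold is thus a ratio of signals with 16 added to each, not of the signals printed. The log2 difference of the means ran from 1.11 to 3.79 with a median of 1.80. The median over all tested probe sets was 0.05. Within the mutant, 8 of the 9 genes stood at least 2-fold higher on replicate 1 than on replicate 2, against 1.42% of all tested probe sets. ORA47 was the exception. Since the genes were picked with these array values known, nothing is read from this count either. The same holds for every share of tested probe sets set beside the 9 genes below.

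**Figure D1:**
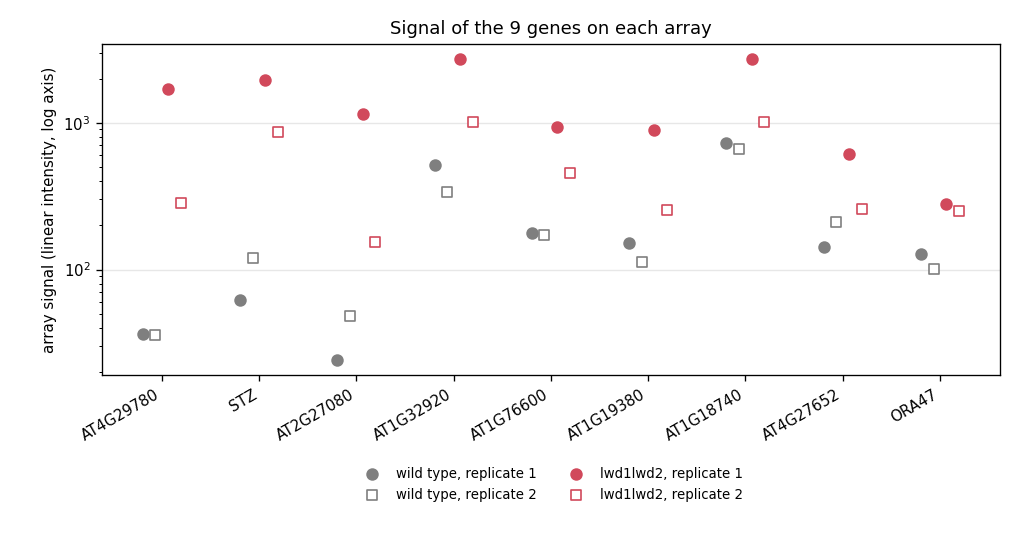
Signal (linear intensity on a log axis) of each of the 9 genes on the 4 arrays, with wild type in grey, lwd1lwd2 in red, replicate 1 as filled circles and replicate 2 as open squares. Both red points lie above both grey points for every gene, and the red circle lies well above the red square for all genes but ORA47.

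STZ had signals of 62.1 and 121 on wild-type replicates 1 and 2. On mutant replicates 1 and 2 its signals were 1965 and 868. The groups did not overlap, and the lower mutant array was 6.47-fold above the higher wild-type array. On the log2 scale wild type averaged 6.69 ± 0.57 and the mutant 10.37 ± 0.82 (SD, n = 2), a difference of 3.68 or 12.8-fold. Mutant replicate 1 was 19.2-fold above the wild-type mean and mutant replicate 2 was 8.56-fold above it. Of the 9 genes STZ had the highest fold on replicate 2, and the gap between the mutant arrays, 2.24-fold, was small beside the distance of either from wild type. The wild-type arrays differed in the other direction, with replicate 2 higher by 0.81 on the log2 scale (replicate 1 minus replicate 2, -0.81).

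ORA47, the other transcription factor gene, showed a small and even difference. Its signals were 128 and 101 in wild type, against 281 and 250.4 in the mutant. The log2 means were 7.02 ± 0.21 and 8.14 ± 0.11 (SD, n = 2), which differed by 1.11, or 2.16-fold. Mutant replicates 1 and 2 stood 2.28-fold and 2.05-fold above the wild-type mean, so both gave nearly the same value. ORA47 was the 1 gene of the 9 whose spread was smaller in the mutant than in wild type. Its gap between the mutant arrays was 0.15 on the log2 scale, and 30.5% of tested probe sets had a gap at least as large in that direction.

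AT4G29780 had a mean difference close to that of STZ, larger at the offset of 16 (3.79 against 3.68) and smaller at 64 (2.97 against 3.17). Its wild-type signals were 36.3 and 35.6, and its mutant signals were 1696 and 284. Mutant replicate 1 was 33.0-fold above the wild-type mean and replicate 2 was 5.77-fold above it. The log2 difference of 3.79 thus averages 5.04 on one array and 2.53 on the other, with an SD of 1.78 on the mutant side and 0.01 for wild type (n = 2).

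AT2G27080 had a similar pattern with an even wider gap. Its signals were 24.1 and 48.1 in wild type, against 1143 and 155 in the mutant. The mutant arrays differed 6.78-fold, and 0.0147% of tested probe sets had a gap at least as large in that direction. The log2 difference from the wild-type mean was 4.52 on replicate 1 and 1.75 on replicate 2. Both mutant arrays remained above both wild-type arrays, by 2.67-fold at the closest.

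For STZ, AT4G29780 and AT2G27080 the wild-type mean lay below the signal of 91.5 at the cutoff for dim probe sets. These 3 genes passed the filter through their mutant arrays, and their fold values depend on the offset of 16. All 9 genes passed, and the other 6 had wild-type means above the cutoff.

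A second set of 4 genes had wild-type signals above that cutoff and a difference that came mostly from mutant replicate 1. AT1G32920 had signals of 515 and 335 in wild type, against 2710.2 and 1018 in the mutant, 6.32-fold and 2.40-fold above the wild-type mean. AT1G76600 had the most even wild-type arrays of this set, at 178 and 173, with 940.3 and 451 in the mutant. Its mutant arrays stood 4.99-fold and 2.44-fold above the wild-type mean, and its gap of 2.05-fold was the smallest after that of ORA47. These 2 genes had mean log2 differences of 1.96 and 1.80.

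AT1G19380 had signals of 152 and 112 in wild type, against 890.2 and 255 in the mutant. Replicate 1 stood 6.19-fold above the wild-type mean, and replicate 2 stood 1.85-fold above it. AT1G18740 had signals of 728 and 658 in wild type, against 2700.3 and 1006 in the mutant. Its mutant arrays were 3.84-fold and 1.44-fold above wild type, so the difference on replicate 2 was small.

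AT4G27652 came closest to an overlap between the genotypes. Its signals were 142 and 211 in wild type, against 612 and 257 in the mutant. The lower mutant array was 1.20-fold above the higher wild-type array, a distance smaller than that between the wild-type arrays themselves. Its mean log2 difference was 1.13, made of 1.73 on replicate 1 and 0.53 on replicate 2.

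Each mutant array was also set alone against the wild-type mean, which enters both differences. With 1 array each, it cannot be told whether replicate 1 was raised or replicate 2 lowered. On replicate 1 all 9 genes were at least 2-fold above wild type and 6 were at least 4-fold above it, where 3.28% of tested probe sets reached 2-fold. On replicate 2 the 2-fold limit was reached by 6 genes, where 2.61% of tested probe sets reached it, and STZ and AT4G29780 reached 4-fold. AT1G19380, AT1G18740 and AT4G27652 stayed below 2-fold there. The median log2 difference of the 9 genes was 2.63 on replicate 1 and 1.26 on replicate 2.

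**Figure D2:**
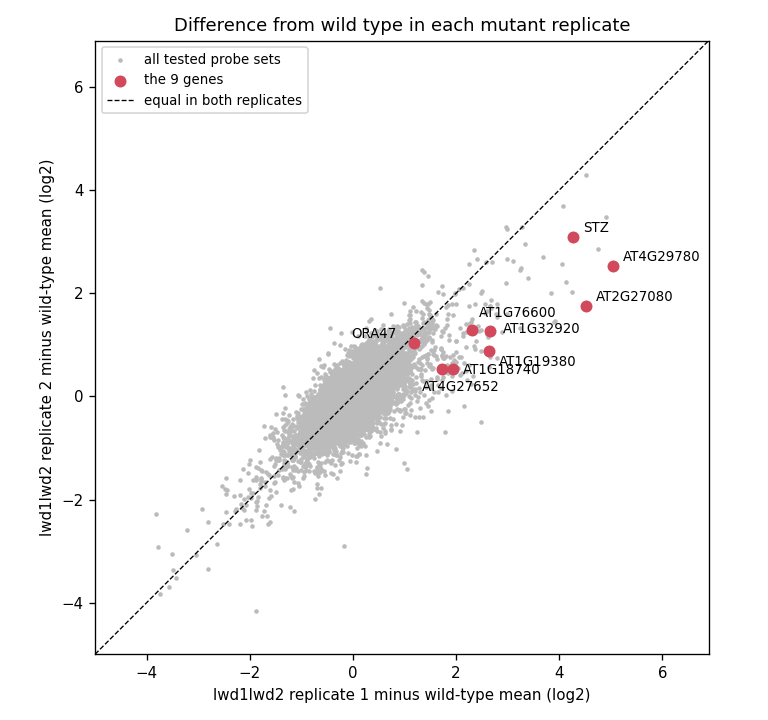
Log2 difference from the wild-type mean on lwd1lwd2 replicate 1 (horizontal axis) and replicate 2 (vertical axis) for all 13647 tested probe sets in grey and the 9 genes in red, with the dashed line where both are equal. ORA47 lies next to the line, and the other 8 genes lie at least 1.03 below it.

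The linear signal gained over the wild-type mean needs no offset, and on this scale too ORA47 was the most even gene and AT2G27080 the least. Replicate 2 gained 81.8% of what replicate 1 gained for ORA47. The share was 41.5% for STZ and 36.0% for AT1G76600. It was 26.0% for AT1G32920. For the other 5 genes it lay between 10.7% (AT2G27080) and 18.6% (AT4G27652). STZ and AT4G29780 had nearly the same mean log2 difference, 3.68 and 3.79, but shares of 41.5% and 14.9%.

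In wild type none of the 9 genes differed 2-fold between the arrays, against 1.83% of tested probe sets that differed 2-fold in either direction. Replicate 1 was the higher wild-type array for 6 genes and replicate 2 for 3 (STZ, AT2G27080 and AT4G27652). The log2 gap in wild type ran from -0.81 to 0.60 with a median of 0.04, while in the mutant it ran from 0.15 to 2.76 with a median of 1.40. Over all tested probe sets the median gap was -0.02 for wild type and -0.01 for the mutant, on arrays already scaled to a common mean. With 1 array against 1 array no test of these gaps was possible. Among the 335 probe sets that were at least 2-fold higher in the mutant without overlap (2.45% of those tested), 20.0% had replicate 1 at least 2-fold above replicate 2.

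A flower and anther marker, AT5G07230, also differed between the replicates. It was the 1 of 5 such markers that could be named, with signals of 156 and 33.1 in wild type, against 300.1 and 40.9 in the mutant. It was thus higher on replicate 1 in both genotypes. The part of tissue makeup in the gap between the mutant arrays was not tested.

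The levels of the 9 genes over the 4 arrays were compared by Euclidean distance in log2 units. Each gene was centred on its own mean but not scaled, so the size of a difference counts in the distance. The nearest pair was AT1G32920 and AT1G19380, at 0.35. AT1G32920 and AT1G76600 were 0.50 apart, as were AT1G18740 and AT4G27652. AT4G29780 and AT2G27080, the genes with the widest gaps, were 0.84 apart. STZ was nearest to AT4G29780, at 1.12, and ORA47 to AT1G18740, at 0.90. The 2 transcription factor genes were unlike each other, at 2.78. The centred mean of all 9 genes was -1.12 and -1.06 in wild type, against 1.83 and 0.35 in the mutant. AT1G76600 lay nearest to that mean, at 0.50, and AT4G29780 farthest from it, at 1.77.

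The 8 other named genes nearest to this mean over the 4 arrays were AT3G56880, AT3G04640, AT2G38465, AT4G27280, EXLA1, AT5G17850, AT1G74450 and AT5G11070, at distances of 0.34 to 0.61. They were selected for likeness over the same arrays, so their values too are a description. AT3G56880 had signals of 725 and 928 in wild type, against 5081 and 1929 in the mutant. EXLA1, which encodes an expansin-like protein of the cell wall, had signals of 279 and 177 in wild type, against 1758 and 553 in the mutant. All 8 had replicate 1 above replicate 2 in the mutant, by at least 2-fold for 5 of them, and the replicate 2 gain was 18.2% to 48.6% of that on replicate 1. In all, 62 other tested probe sets lay within a distance of 1 of the mean, of which 23 had 1 named gene; 4 of the 9 genes themselves lay within it.

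**Figure D3:**
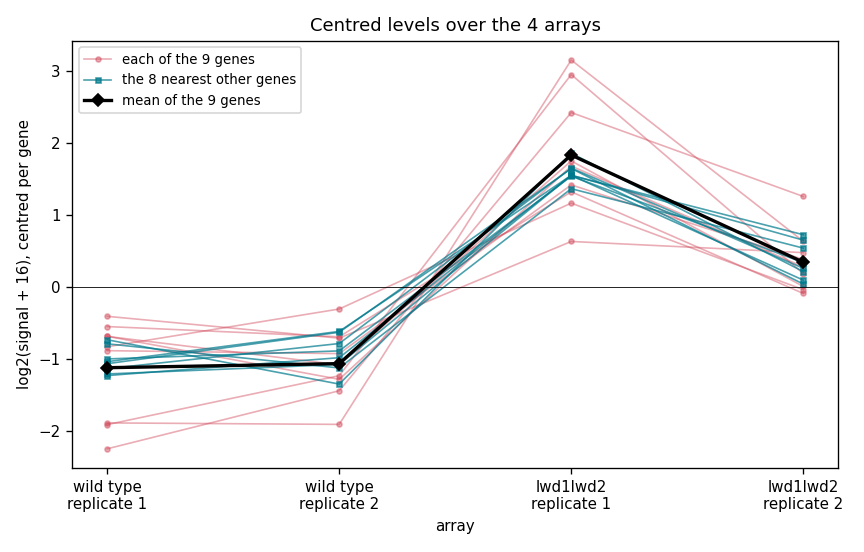
Log2(signal + 16) on each array, centred per gene, for the 9 genes (red), the 8 nearest other named genes (blue) and the mean of the 9 (black). The mean runs from -1.12 and -1.06 in wild type to 1.83 on mutant replicate 1 and 0.35 on mutant replicate 2, and the flattest red line is ORA47.

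Position in the genome was not used to choose the genes. Among the 5 protein-coding genes on each side of each of the 9 in the TAIR10.1 gene order, the array named 41 and 31 passed the filter. The limma test with Benjamini-Hochberg adjustment called 1 of the 31 higher and none lower, against 2.73% higher and 2.84% lower of all tested probe sets. With each array centred on its median, the calls over all probe sets were 257 higher and 572 lower, in place of 372 and 388. The median log2 difference of the 31 neighbours was 0.11.

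The neighbour called was AT1G19370, which lies next to AT1G19380. Its signals were 208 and 138 in wild type, against 385 and 327 in the mutant, a log2 difference of 1.00 ± 0.25 (SE, limma adjusted p = 0.043). The mutant arrays of AT1G19370 were close to each other, unlike those of AT1G19380. The limma adjusted p of AT1G19370 was 0.160 without the filter and 0.0552 without the intensity trend. It was 0.0677 with quantile normalization and 0.0675 with median centring. It stayed below 0.05 with the other offsets, the robust prior and the replicate block. The log2 difference was 0.73 when wild-type replicate 2 was left out and 0.89 when mutant replicate 1 was. AT4G27654, next to AT4G27652, was too dim to be tested, with signals of 48.2 and 48.0 in wild type, against 174 and 62.2 in the mutant. It was thus high on mutant replicate 1, as AT4G27652 was. AT4G27657, the gene after it, had a log2 difference of -0.41 ± 0.31 (SE, limma adjusted p = 0.511).

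Other genes of the rapid stress response were taken from 9 lists, drawn up with earlier results of these data known. Most were set by gene family or pathway. The list of relatives of the 9 genes also held the genome neighbours AT4G27654 and AT4G27657. AT4G27657 is thus counted among the 31 tested neighbours and again among the tested list genes. A further list, of 12 ethylene response factors, had no member named on the array. The 10 lists together held 142 genes, of which the array named 30, and 13 passed the filter. Of these 13, 2 rose and none fell in the mutant (limma, adjusted p below 0.05). At the same threshold 2.73% of all tested probe sets rose and 2.84% fell. The median log2 difference of the 13 was -0.06, and that of all tested probe sets was 0.05.

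AT4G27280, from the list of touch and calcium genes, rose 4.84-fold. Its signals were 548 and 602 in wild type, against 3787 and 2135 in the mutant. The log2 difference was 2.28 ± 0.25 (SE, limma adjusted p = 5.8e-04), and the alternatives that kept all 4 arrays gave adjusted p between 3.5e-04 and 0.0167. It also passed with any 1 array left out, where the genotype with 2 arrays alone gives the spread. It was also among the 8 genes nearest to the mean of the 9.

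AT1G74450, listed as a relative of AT1G18740, was the other gene that rose. It had signals of 479 and 646 in wild type, against 2953 and 1068 in the mutant, so that replicate 1 was the higher mutant array, as it was for AT1G18740. The log2 difference was 1.65 ± 0.37 (SE, limma adjusted p = 0.029). With a robust variance prior the adjusted p was 0.264, without the filter 0.156 and without the intensity trend 0.0631. Over the alternatives with all 4 arrays it ran from 0.0216 to 0.264. The listed relatives of AT4G29780 and AT1G76600 did not pass: AT5G12010 had a log2 difference of -0.31 and AT1G21010 one of -0.17.

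From each of the lists of genes related to STZ and to ORA47, 1 gene was tested, and neither passed. AT2G28200, from the list of STZ-type zinc fingers, was lower in the mutant, with signals of 200.4 and 305 in wild type, against 94.6 and 135 in the mutant. Its log2 difference of -1.03 ± 0.28 (SE) missed the threshold (limma adjusted p = 0.0628), and its direction is opposite to that of STZ. It passed with the replicate number as a block (limma adjusted p = 0.0491), after median centring (0.0407) and with the robust prior (0.0432). It did not pass with an offset of 1 (0.0631) or 64 (0.0653), nor with quantile normalization (0.0504). Without the intensity trend the limma adjusted p was 0.0641, and without the filter 0.214. With 1 array left out, its log2 difference ran from -1.315 to -0.745. AT1G44830, the tested gene among those related to ORA47, had a log2 difference of -0.06 ± 0.51 (SE), with a wild-type spread wider than any difference. In the jasmonate pathway, which ORA47 is known to activate, OPCL1, an enzyme of jasmonate synthesis, had a log2 difference of -0.17 ± 0.29 (SE, limma adjusted p = 0.793). AT5G05600, from the list of jasmonate signalling and turnover, stood at 0.27 ± 0.24 (SE, limma adjusted p = 0.574).

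Calmodulin-like proteins bind calcium, and several of their genes respond to touch and wounding. CML23 had signals of 102 and 96.5 in wild type, against 316 and 149.8 in the mutant, and the groups did not overlap. The log2 difference of 1.03 ± 0.33 did not pass (SE, limma adjusted p = 0.104). CML41 and CML42 had differences of 0.24 and 0.37 and did not pass. PUB24, a U-box ubiquitin ligase of immune signalling, had a difference of -0.30 (limma adjusted p = 0.613).

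The other 17 named list genes lay below the cutoff and were not tested; 8 of them had both mutant arrays above both wild-type arrays, and 11 had mutant replicate 1 at least 2-fold above replicate 2. Among all 9099 probe sets below the filter, controls left out, these shares were 22.9% and 5.02%. Of the 11, AT1G77640, CML37, CML38, AT3G01830 and PUB22 were also higher on wild-type replicate 1, by 0.93 to 1.21 (log2). AT1G33760 and WRKY53 were higher on wild-type replicate 2. The rest were higher on wild-type replicate 1 by 0.005 to 0.51. CML38 had signals of 27.4 and 2.81 in wild type, against 1013 and 130 in the mutant, and the mutant arrays differ 7.05-fold on the offset scale. On the mutant arrays this resembles AT2G27080, whose higher wild-type array was replicate 2 and not replicate 1. CML38 also lies within 5 genes of AT1G76600. The U-box gene PUB22 had wild-type signals of 65.6 and 26.8, and PUB23 had 48.5 and 36.4. On the mutant arrays PUB22 had 295 and 95.5, and PUB23 had 171 and 106. WRKY22 and WRKY53, transcription factors of defence and senescence, had 158 and 62.2, and 207 and 90.9, on the mutant arrays, above wild-type signals of at most 31.4 and 59.4. WRKY6 went the other way, with 87.9 and 56.8 in wild type, against 53.6 and 4.98 in the mutant. AT1G65690 of the NDR1/HIN1-like family, which includes regulators of immunity, overlapped between the genotypes.

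**Figure D4:**
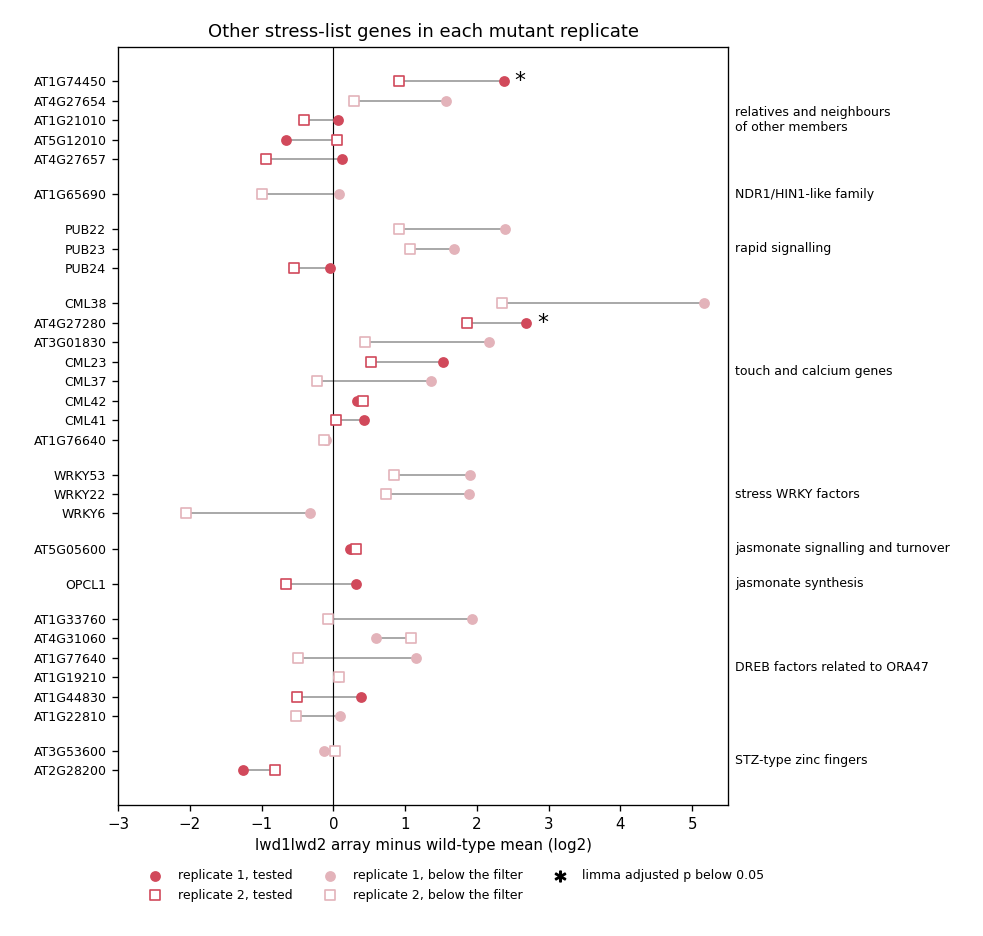
Log2 difference from the wild-type mean on lwd1lwd2 replicate 1 (filled circles) and replicate 2 (open squares) for the 30 stress-list genes named on the array, grouped by list; pale points lay below the filter and an asterisk marks the 2 genes past the threshold. CML38 has the longest distance between its points, and AT2G28200 lies below 0 on both arrays.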

How the data were processed

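Total RNA from 4 samples was labelled with biotin by in vitro transcription and hybridised to Affymetrix GeneChips, per the labels' protocols. Per array, the deposited file gives a linear intensity for 22810 probe sets; the software behind it is not stated. Every array had the same mean intensity, 500.05, after 2% was trimmed from each end, so total signal cannot be compared. Detection calls were not used.

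Values were taken as log2(intensity + 16), on which fold changes of dim genes are understated. Controls (64 probe sets) and the dimmest 40% by mean over the 4 arrays were removed, leaving 13647. Mutant minus wild type was tested with limma 3.58.1 in R 4.3.3 (genotype only, eBayes with an intensity trend, two-sided, p adjusted by Benjamini-Hochberg over these 13647, 2 residual degrees of freedom). The p-values measure the spread between these samples. The procedure was tested on simulated data.

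Genes were named through the platform table and the TAIR10.1 gene table: 13513 probe sets had 1 gene, 503 several and 8794, controls included, none. Of several probe sets for a gene, the brightest was used. Genes given from a list were those past the threshold, up to 4 per list, and otherwise the 2 with the largest difference; further list genes, and the neighbour past the threshold, were named after their values were seen. The 9 genes and the lists were chosen with earlier results of these data known. Alternatives changed the offset, normalization, filter, variance prior, replicate block and arrays used. Figures were drawn with matplotlib 3.10.9.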

Additional observations from a re-analysis of the deposited data

How the results depend on the processing

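No alternative turned the direction of any of the 9 genes. As their groups did not overlap, this was fixed in advance for the other offsets and for those that leave out an array. The median log2 difference of the 9 ran from 1.26 without mutant replicate 1 to 2.63 without mutant replicate 2, and from 1.59 to 1.89 with other offsets and scalings. Single genes depended on the mutant arrays too: AT1G18740 ran from 0.53 to 1.94 and AT2G27080 from 1.75 to 4.52. ORA47 stood at 0.89 with an offset of 64. The median gap between the mutant arrays stayed between 1.36 and 1.41. That of AT1G76600 was 0.96 with an offset of 64 and 0.997 with median centring, and either leaves 7 genes at 2-fold. Leaving out a mutant array gives no gap.

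Without the filter 258 probe sets passed (114 higher, 144 lower), and the cause was not tested. With 1 array left out the calls numbered 561 to 1095 (290 to 607 higher, 271 to 488 lower), most of them without wild-type replicate 1. Centring each array on its median moved the median difference of all tested probe sets from 0.05 to -0.08. Of the stress-list genes, 2 to 4 rose and 0 to 1 fell with 1 array left out; 1 rose without the filter, with the robust prior and without the intensity trend. With an offset of 64, 3 rose, among them CML38 (log2 difference 2.55), which then passed the filter through its mutant arrays. Its wild-type signals were 27.4 and 2.81, so nothing is read from its call. CML38 also passed the filter without wild-type replicate 1 or 2, with log2 differences of 4.36 and 3.16. PUB22 passed the filter without wild-type replicate 1, also through its mutant arrays, with a log2 difference of 2.12. Among the alternatives with all 4 arrays, AT2G28200 was the 1 gene that fell, with median centring, with the robust prior and with the replicate block. When an array is left out, the lone array of its genotype is assumed to vary like those of the other genotype.

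The replicate numbers are shared by the genotypes, and it is not stated whether same-numbered samples were handled together. The deviations of same-numbered arrays correlated at r = 0.09 over tested probe sets. That correlation is no test of a difference shared by some genes only. With the replicate block 676 probe sets passed. Values near the offset limit the fold of dim genes.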
